A study of Drosophila melanogaster with 9 samples.

Results

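The comparison described here set testes of can mutant fruit flies (Drosophila melanogaster) against control testes, across every gene probe set of an Affymetrix expression array. It used 6 of the 9 arrays of the series, chosen by their labels as 3 of can testes and 3 of control testes, and 13966 of 14010 probe sets, the other 44 being array controls. Control males were red[1] e[1], which marks the chromosome that carries the mutation. Mutant males were w ; can[3] red e, so they shared red and e with the control and differed from it by the can[3] allele and also by w. The 3 remaining arrays came from males labelled comr[z1340] cn bw and were used only to show where can testes differed from them. Another of their labels names the gene aly instead, so they are called the arrays labelled comr throughout. All males were raised at 25 °C and were taken as adults on the day they emerged, and whole testes were dissected away from the accessory glands and ejaculatory ducts. No label states that replicate arrays came from separate flies or dissections, so p-values measure the spread between these arrays, which may be technical.

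In a fly testis, stem cell daughters divide as spermatogonia and then grow for days as primary spermatocytes, which transcribe most of the mRNA needed to build a sperm before they enter the meiotic divisions. The gene can (cannonball) encodes a testis-specific version of the TFIID subunit Taf5 and belongs to the testis TAFs, which act with the testis complex tMAC, of which comr and aly are subunits, to switch on spermatid genes in spermatocytes. In males lacking these regulators, spermatocytes stop before the meiotic divisions and make no spermatids, a state known as meiotic arrest.

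The array gives each probe set a signal, its brightness scaled by the authors so that arrays share the same trimmed mean. Differences were tested as log2(signal + 16), can minus control, with limma over all 13966 probe sets and 3 arrays a group. A probe set was called lower or higher at a Benjamini-Hochberg adjusted p under 0.05 and a difference of at least 2-fold on that scale, which understates changes of dim probe sets. A floor of 20.3 was set at the brightest of 23 control probe sets whose transcripts were not added. Where all 3 arrays of a group lay at or under it and all 3 of the other lay above it, the fold is given as at least the bright group's geometric mean over the floor.

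The arrays of 1 group correlated at 0.978 to 0.983 on the log2 scale, and control with can arrays at 0.807 to 0.819. The can transcript itself did not separate the groups. Its signal was 25.3, 28.1 and 41.9 on the control arrays and 41.4, 27.1 and 45.4 on the can arrays. The groups overlapped, and the log2 difference of 0.18 (SE 0.17, adjusted p = 0.415) did not pass the test. A transcript level does not check whether the protein is altered. On the arrays labelled comr the same probe set read 163 ± 13.0 (SD, n = 3). The strain marker e was 40.4 ± 6.49 (SD, n = 3) in control and 24.3 ± 2.13 in can testes, short of the 2-fold threshold, and w and red were not analysed here.

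Testes of can mutants held far less RNA of the genes of sperm tails, sperm chromatin and testis paralogs of glycolytic enzymes. As deposited, a broader set of genes that includes other testis TAFs was higher. These rises depended on the scaling, and only 252 probe sets were higher when arrays were centred on general ribosomal protein genes. Of the 13966 probe sets as deposited, 1295 (9.27%) were lower and 2042 (14.6%) were higher in can than in control testes. Falls were the deeper changes, with 160 probe sets lower by a log2 difference of at least 3 against 14 higher by as much. The median signal of the lower probe sets was 372 in control and 69.0 in can testes, and 204 of them lay at or under the floor on all 3 can arrays. That of the higher probe sets was 52.7 in control and 177 in can testes, and 341 of them lay at or under the floor on all 3 control arrays. All called probe sets had groups that did not overlap, as did 58.8% of all 13966. Since these are whole testes, fewer cells of a type and less RNA per cell cannot be told apart.

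**Figure D1:**
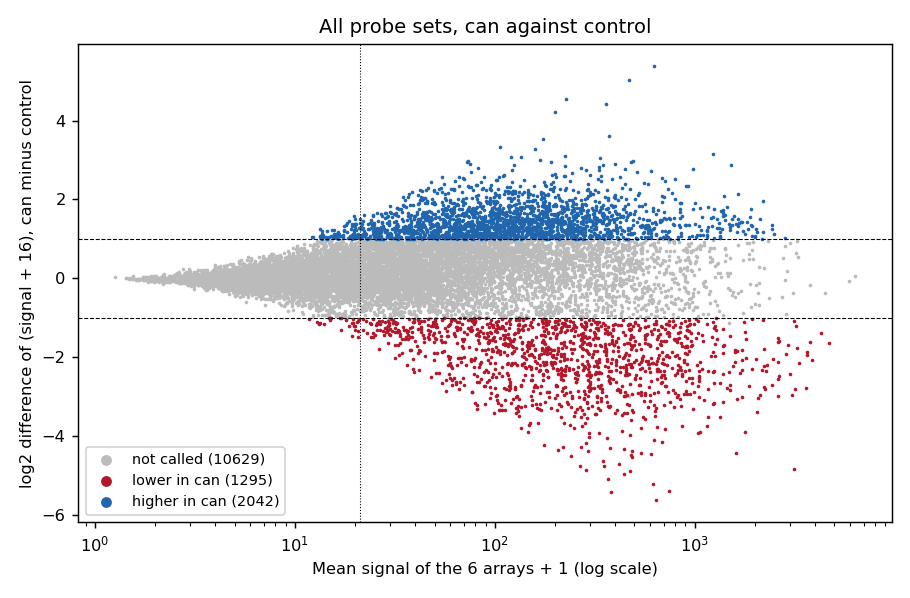
Each point is 1 of 13966 probe sets, with its mean signal + 1 over the 6 arrays on the x axis (log scale) and its log2 difference, can minus control, on the y axis. Red points are the 1295 lower and blue points the 2042 higher calls, dashed lines mark the 2-fold threshold and the dotted line the floor, and more red than blue points lie beyond a difference of 3.

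The direction of the smaller changes rests on the scaling. The share of calls that were higher was 61.2% as deposited, 53.7% after quantile normalisation, 65.7% when arrays were centred on spiked controls, 47.0% when centred on their medians and 6.56% when centred on the 26 general ribosomal protein genes. The median difference over all probe sets was 0.07 as deposited and -0.49 under that ribosomal centring. A rise below is therefore a rise on the deposited scale of a common trimmed mean. Centred on array medians, 1369 of the 2042 higher calls remained. Counts under ribosomal centring are given with the lists.

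Calls clustered among probe sets with signal. Among the 5102 probe sets with a mean signal over the 6 arrays at or under the floor, 0.490% were lower and 1.49% higher. Between 100 and 500 the shares were 20.4% and 29.8% of 3223 probe sets, and above 1000 they were 38.7% and 26.4% of 284. At the brightest levels lower calls thus outnumbered higher ones, while in the dim and middle ranges higher calls outnumbered lower ones.

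**Figure D2:**
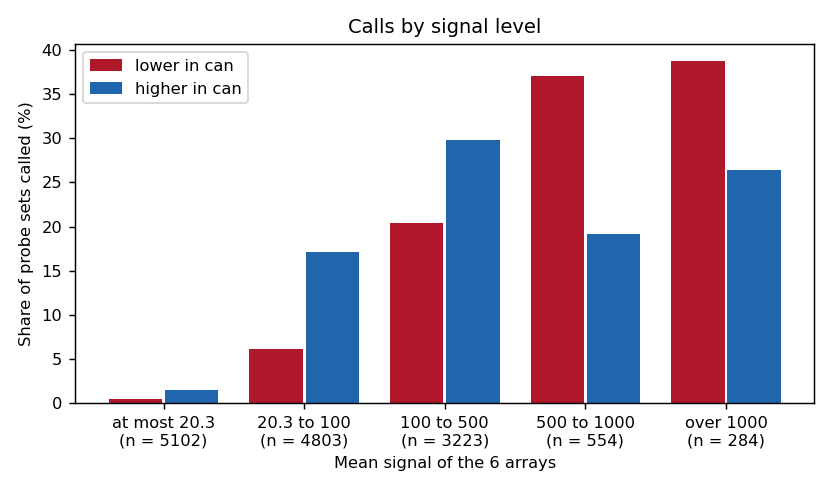
Bars give the percent of probe sets called lower (red) and higher (blue) in can testes (y axis, from 0) in 5 ranges of the mean signal over the 6 arrays (x axis). The share called lower grows from 0.490% in the dimmest range to 38.7% in the brightest. The offset and the 2-fold minimum limit calls in the dimmest range.

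The deepest named fall was that of scpr-B, a testis gene of the SCP family listed with the comet and cup genes. Its signal was 1243.3, 1278.2 and 1293.5 in control testes and 9.5, 11.2 and 9.6 in can testes. All 3 can arrays lay under the floor, so scpr-B was at least 62.6-fold lower (limma adjusted p = 2.36e-10). Its probe set may share sequence with the neighbouring copies scpr-A and scpr-C, so the value may belong to more than 1 of them. Vha36-2, a testis form of a subunit of the vacuolar proton pump, had a signal of 739.2, 781.9 and 759.6 in control testes and 2.5, 1.8 and 2.6 in can testes. It was at least 37.4-fold lower, with no can array near any control array. The cup gene w-cup, known for RNA that collects at spermatid tips, read 1196.7, 1210.2 and 1256.5 in control and 24.1, 13.1 and 15.3 in can testes. Only 1 of the can arrays was above the floor, and the fitted log2 difference was -5.22 (SE 0.15).

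Other deep falls were of genes with varied roles. The mitochondrial import gene Tim17a1 was at least 20.1-fold lower in can testes, the cytochrome oxidase subunit form COX6AL2 at least 21.3-fold lower and TTLL6A, of the tubulin ligase family, at least 28.2-fold lower. For Acyp, an acylphosphatase, signal was 979.1, 890.0 and 922.1 in control testes and 24.8, 9.0 and 17.2 in can testes, a log2 difference of -4.87. Adgf-E, of the adenosine deaminase-related growth factors, differed by -4.63, and Roc1b, a RING subunit of cullin ubiquitin ligases, by -4.26. The fucosyltransferase family gene FucTD differed by -4.10 and the roadblock dynein light chain robl62A by -3.90, with mean signals that stayed above the floor in can testes (54.9 and 212). The gene sowi read 1292.8, 1310.2 and 1312.4 in control and 58.0, 62.0 and 57.8 in can testes, so its arrays within each group lay close together and the groups far apart. The 12 largest named falls ranged from -5.62 to -3.90, with adjusted p at most 8.52e-09. Among genes known by a number alone, CG15638 was at least 35.9-fold lower, CG8560 at least 34.1-fold lower and CG5024 at least 27.8-fold lower.

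The largest named rise was that of RpL22-like, a germline paralog of a large-subunit ribosomal protein. Its signal was 18.3, 17.9 and 4.6 in control testes and 990.4, 867.5 and 898.0 in can testes. All 3 control arrays lay under the floor and all can arrays far above it, at least 45.2-fold higher (limma adjusted p = 1.51e-09). Amy-d, an amylase of digestion, read 2.5, 3.0 and 2.0 in control and 708.9, 321.7 and 313.7 in can testes, at least 20.5-fold higher. The can arrays of Amy-d differed among themselves by more than those of RpL22-like, and no gut marker list was measured beside it. The nascent polypeptide complex paralog betaNACtes1 read 30.9, 40.8 and 61.7 in control and 618.3, 690.3 and 802.8 in can testes, a log2 difference of 3.60 (SE 0.16).

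Several of the other large rises were of transcription, nuclear and cell division genes. Xpd, a helicase of the transcription and repair factor TFIIH, was at least 14.6-fold higher in can testes, with 14.0, 17.8 and 17.6 in control and 304.4, 251.9 and 338.2 in can arrays. Mat1, a further TFIIH subunit that belongs to its kinase module, rose by a log2 difference of 2.95, from a mean signal of 97.7 to 860. The separase gene thr rose by 3.07 and the centriole gene ana3 by 3.00, while the nucleoporin gene Aladin was at least 12.4-fold higher. Galphaf, a G protein alpha subunit, was at least 10.03-fold higher, and mms4, a partner of a DNA repair nuclease, at least 6.98-fold higher. The ubiquitin ligase gene snama rose by 3.10 and pie by 3.06. All 12 of the largest named rises, which ranged from 2.95 to 5.02, stayed called under ribosomal centring, as did the 12 largest falls. Among genes with a number alone, CG14667 was at least 16.4-fold higher and CG11700 rose by 2.89, from 349 to 2682, while CG7214 was at least 18.4-fold higher with can arrays of 536.0, 399.5 and 243.6.

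**Figure D3:**
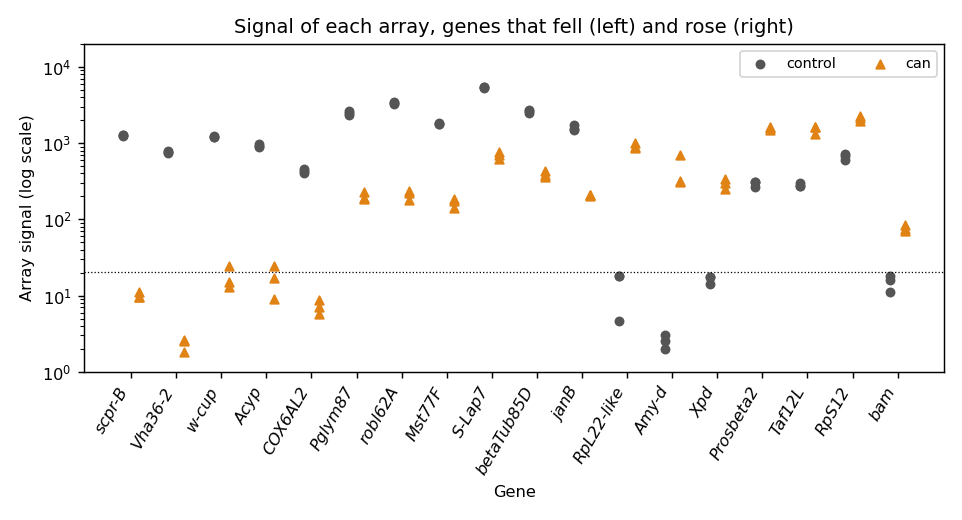
Signal on each of the 6 arrays (y axis, log scale) for genes named in the text that fell (left) or rose (right); grey circles are control arrays, orange triangles can arrays, and the dotted line marks the floor of 20.3. Control and can arrays do not overlap for any of these genes.

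The extremes also include probe sets that match more than 1 gene symbol and so name no gene. One read 1504.4, 1314.7 and 1588.1 in control and 26.3, 20.6 and 12.4 in can testes, a log2 difference of -5.39. Another read 15.9, 12.4 and 13.3 in control and 1268.3, 1330.6 and 1116.2 in can testes, the largest rise on the array at 5.39. Of 1523 probe sets without a single symbol, 90 were lower and 217 higher. The remaining 12443 probe sets stood for 10844 genes, each represented below by its probe set with the highest mean over all 9 arrays. Of these genes 1163 (10.7%) were lower and 1782 (16.4%) higher, with a median log2 difference of 0.12. The counts of each list below are to be read against these shares.

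Sperm tail genes fell together. Of 13 measured genes of the Mst(3)CGP family and other sperm tail proteins, 12 fell and none rose, with a list median of -2.08. The largest fall was that of janB, a sperm protein of the janus cluster, which read 1491.5, 1544.2 and 1746.7 in control and 207.0, 204.4 and 207.8 in can testes (-2.85, SE 0.070). Mst89B fell by 2.84 and the don juan-like sperm tail gene djl by 2.44 on the log2 scale. The 4 Mst84D genes, repeats of a cysteine-rich tail protein, fell by 1.39 to 2.08, Mst87F by 2.05, and Mst98Ca and Mst98Cb by 1.77 and 2.18. These tail genes kept clear signal in can testes. The listed member that was not called, Mst57Da (0.33), is known as an accessory gland transcript.

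Genes that pack sperm chromatin fell as well, 6 of 7 measured, with a median of -1.79. Mst77F, a linker histone-like protein of the sperm nucleus, read 1791.5, 1794.6 and 1813.2 in control and 141.4, 174.5 and 183.7 in can testes (-3.32, SE 0.13). Mst33A fell by 2.91, Prtl99C by 1.94 and the high mobility group gene tHMG1 of spermatids by 1.79. ProtB, a protamine, fell by 1.47, with a near-identical neighbour in ProtA whose transcript its probes may also read. The exception was Hmg-2, another gene of that group, which rose by 1.91.

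Comet and cup genes, named for where their late spermatid RNAs collect, gave 10 lower and 0 higher of 14, with a median of -1.82. Beside scpr-B and w-cup, sunz read 513.1, 506.0 and 509.9 in control and 24.7, 29.4 and 37.4 in can testes (-3.51). The comet gene schuy fell by 3.18, f-cup by 2.47 and soti, an inhibitor of the ubiquitin ligase that acts in individualization, by 2.35. The members without a call, c-cup, m-cup, r-cup and s-cup, had differences of -0.78 to -0.63, and under ribosomal centring all 14 were called lower.

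Axoneme and sperm motility genes divided, with 12 of 24 lower, none higher and a median of -1.03. The falls included roadblock light chains of axonemal dynein: robl37BC read 776.2, 796.4 and 837.3 in control and 54.6, 55.7 and 65.2 in can testes (-3.46, SE 0.084). The dynein heavy chain genes Dnah3, Dhc36C and Dhc62B fell by 2.78, 2.73 and 1.89, the radial spoke gene Rsph1 by 2.05 and Tektin-A by 1.82. Dhc93AB (-0.04), gudu (-0.09) and the general light chain gene robl (0.17) were not called. Under ribosomal centring 21 of the 24 were called lower.

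Individualization, the step that strips spermatids of their cytoplasm, was a mixed list, with 7 lower and 1 higher of 19 and a median of -0.09 that turned to 0.15 under quantile normalisation. Under ribosomal centring 10 were lower and 0 higher, with a median of -1.20. The glycine transporter gene Ntl fell by 2.54, mlt by 2.37, the kinase gene Tssk by 2.15 and orb2, an RNA-binding translation regulator, by 1.92. Dronc, the initiator caspase, rose by 1.94. Of 14 mitochondrial shaping genes 3 fell and 2 rose, with a median of -0.50. Those that fell were testis forms: ttm2 and ttm3, paralogs of the import subunit Tim50, and fzo, the mitofusin of the spermatid nebenkern, which read 180.0, 123.5 and 149.4 in control and 21.3, 30.4 and 33.5 in can testes (-1.91). Those that rose were their general counterparts, ttm50 (1.64) and the mitofusin Marf (1.26). These 2 of 14 genes are near the 16.4% of all genes called higher. Under ribosomal centring neither rise was left and 10 of the 14 were lower. All 4 measured sperm leucyl aminopeptidases, abundant proteins of the sperm mitochondrial derivative, fell. S-Lap7 did so from 5489.2, 5351.3 and 5527.1 in control to 618.4, 690.0 and 759.8 in can testes (-2.96).

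Testis forms and general forms of the same proteins were set side by side for glycolysis, the proteasome, the respiratory chain and the ribosome. All 6 measured testis paralogs of glycolytic enzymes fell, with a median of -3.14. The phosphoglycerate mutase paralog Pglym87 read 2464.5, 2349.7 and 2607.9 in control and 185.7, 193.3 and 231.1 in can testes (-3.51, SE 0.088), while the general Pglym78 read 14.1, 14.3 and 40.4 in control and 96.9, 172.5 and 142.8 in can testes (2.01, SE 0.26). Among 9 general glycolytic genes 3 rose and 2 fell. Gapdh1 rose by 1.58 and Pgk, near the threshold, by 1.03, but the phosphofructokinase gene Pfk fell by 2.16, from 1138.6, 1206.1 and 1123.2 to 247.1, 243.3 and 246.9, and the aldolase gene Ald1 by 1.38. Of the 3 rises, that of Pglym78 alone was still called under ribosomal centring, where 4 of the 9 were lower.

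Of 12 testis-specific proteasome subunits 7 fell (10 under ribosomal centring) and none rose, with a median of -1.40. Prosbeta4R2 read 465.0, 473.3 and 495.1 in control and 24.8, 22.1 and 13.1 in can testes (-3.79), and Prosalpha6T fell by 2.52. Of 26 general subunits 13 rose and none fell, with a median of 0.97 that turned to -0.20 under ribosomal centring, where 2 were called higher and 1 lower. The general partner Prosalpha6 read 170.1, 199.9 and 196.5 in control and 1322.3, 1120.5 and 1118.7 in can testes (2.55, SE 0.10). Prosbeta2 rose by 2.34 and Prosbeta5 by 2.05.

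Of 17 testis paralogs of respiratory chain and ATP synthase subunits 13 fell, with a median of -1.37, and ATPsynepsilonL rose (1.34). Under ribosomal centring 15 were lower and none higher. SdhAL, a testis form of a succinate dehydrogenase subunit, read 534.1, 497.6 and 555.8 in control and 46.3, 40.4 and 50.1 in can testes (-3.15). ND-B14.5AL, of complex I, fell by 2.91 and COX4L, of cytochrome oxidase, by 2.34. Of 29 general subunits 12 rose, among them ATPsynO (1.58) and ATPsynC (1.33), with a median of 0.92 that turned to -0.28 under ribosomal centring, where none was called higher and 5 lower. COX7C, listed as a general subunit, fell from 172.7, 181.1 and 172.5 to 37.2, 37.4 and 30.2 (-1.91).

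Paralogs of ribosomal proteins did not follow the testis paralogs above, with 7 of 10 higher, 2 lower and a median of 1.14 that turned to -0.02 under ribosomal centring, where 1 stayed higher. Beside RpL22-like, RpL37-2 rose by 2.14 and RpS5b, a germline paralog, by 1.80. RpL10Aa fell from 766.4, 748.0 and 747.3 to 60.6, 56.4 and 65.1 (-3.33, SE 0.091) and RpS28a by 2.69. Of 26 general ribosomal protein genes 21 rose, by a list median of 1.24, and RpS12 went from 603.4, 684.2 and 712.4 to 2256.7, 2124.3 and 1975.0. These 26 genes are the reference of ribosomal centring, so under it their median is near 0 by construction.

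**Figure D4:**
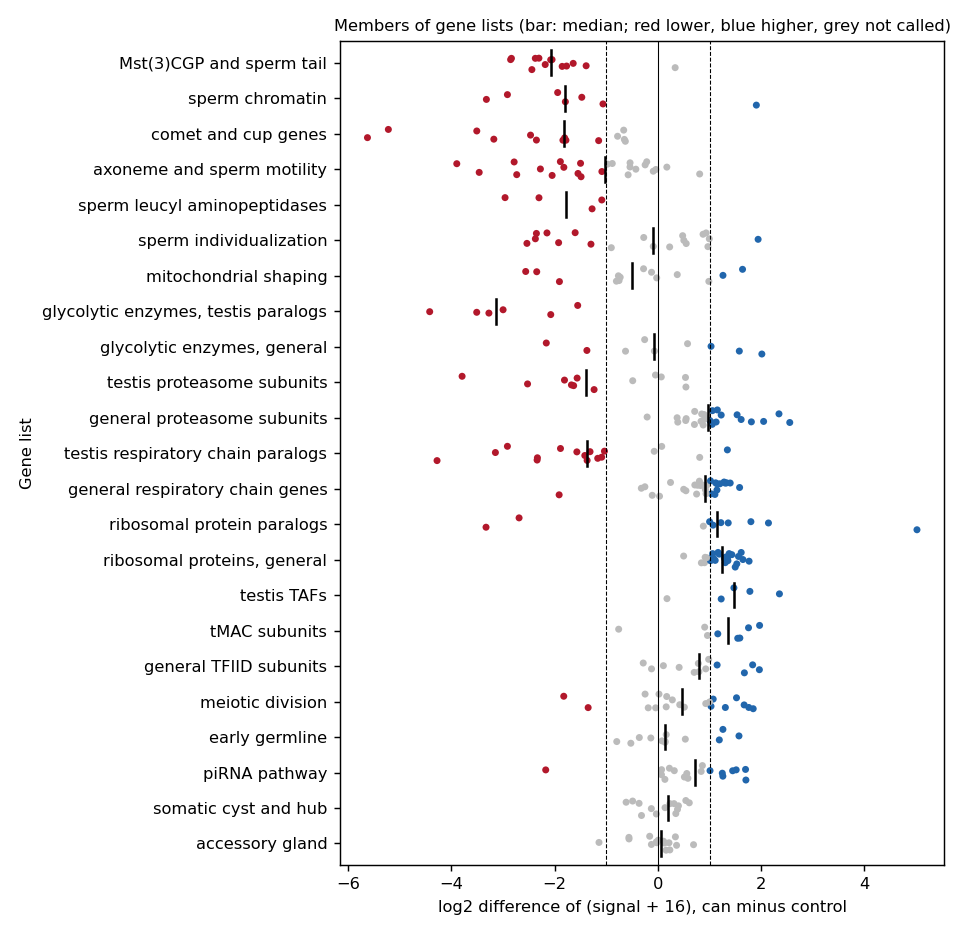
Each dot is a measured gene, in 1 row of dots per list (y axis), at its log2 difference, can minus control, on the x axis; red dots were lower, blue dots higher and grey dots not called, bars mark list medians and dashed lines the 2-fold threshold. Red dots outnumber blue ones in the lists of sperm genes and of testis paralogs, except for ribosomal protein paralogs (7 of 10 blue). Blue dots outnumber red ones in the general proteasome (13 of 26 blue), respiratory (12 of 29) and ribosomal (21 of 26) lists.

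The regulators of the spermatocyte programme were not among the called losses, although the tMAC gene topi was lower by less than 2-fold. Of 5 testis TAFs 4 rose, with a median of 1.47, and of 8 tMAC subunits 5 rose, with a median of 1.35. No member of either list was called lower. The testis Taf12 form Taf12L read 270.9, 276.9 and 303.3 in control and 1626.2, 1604.8 and 1328.5 in can testes (2.35, SE 0.085). The testis Taf8 form sa rose by 1.78, the testis Taf6 form mia by 1.47 and the testis Taf4 form nht by 1.23, so can was the member without a call. Within tMAC, wuc rose by 1.97, Caf1-55 by 1.75 and mip40 by 1.55. The tMAC gene comr read 13.9, 14.2 and 23.8 in control and 68.7, 49.1 and 56.6 in can testes (1.16, SE 0.16, adjusted p = 8.85e-05). Its partner aly read 79.8, 89.5 and 89.6 in control and 165.1, 174.2 and 187.7 in can testes. The groups did not overlap, but the difference of 0.91 was under 2-fold. The gene topi read 169.8, 141.5 and 108.6 in control and 69.1, 78.9 and 76.9 in can testes. Its groups did not overlap either, and its difference of -0.76 (limma adjusted p = 4.00e-04) was also under 2-fold. Under ribosomal centring 1 of the testis TAFs, Taf12L, stayed higher and no tMAC subunit did, while 1 tMAC subunit was lower.

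Of 13 general TFIID subunits 4 rose, Taf6 (1.96), Taf9 (1.83), Taf3 (1.67) and Taf5 (1.15), the last being the general form of can, with a list median of 0.79. Of 7 dREAM subunits, the general relatives of tMAC, mip120 and E2f2 rose with a list median of 0.90 (-0.12 under ribosomal centring). Neither was called after quantile normalisation (0.997 and 0.89) or when centred on array medians (0.945 and 0.782). The mip120 call also ended without the array of most accessory gland signal in each group (0.997). That of E2f2 ended without control replicate 2 (0.97) or 3 (0.98). Of 14 Polycomb group genes 4 rose, with a median of 0.58 (-0.03 under ribosomal centring). The ubiquitin ligase subunit Sce read 25.4, 29.1 and 32.6 in control and 178.4, 174.0 and 185.0 in can testes (2.12), and esc was at least 3.79-fold higher. Of 9 bromodomain and histone chaperone genes tbrd-3 (1.70), Caf1-105 (1.69) and Nap1 (1.64) rose, with a list median of 0.75 (-0.31 under ribosomal centring). No gene of these 4 lists fell as deposited. Under ribosomal centring 2 Polycomb genes but no member of the other 3 lists stayed higher, and 1 TFIID and 1 bromodomain or chaperone gene were lower.

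Meiotic division genes gave 7 rises and 2 falls of 20, against 16.4% higher and 10.7% lower of all genes. The count of falls is thus near the share over all genes. The list median of 0.47 turned to -0.63 under ribosomal centring, where no rise was left and 6 were lower. The falls were those of fzr2, which encodes a male germline coactivator of anaphase ubiquitin ligase and read 454.0, 444.0 and 469.7 in control and 111.3, 133.0 and 108.8 in can testes (-1.82), and of bol, a translation regulator of meiotic entry (-1.35). The spindle checkpoint genes mad2, Bub3 and Bub1 rose by 1.85, 1.76 and 1.67, as did the passenger complex gene borr by 1.52. The gene twe, the meiotic Cdc25 phosphatase whose mRNA is made in spermatocytes, was not called (0.16).

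Genes of spermatocytes and of the early germline did not move as blocks. Of 8 spermatocyte genes 3 fell and 2 rose, with a median of -0.08 that turned to 0.06 under quantile normalisation. Under ribosomal centring the median was -0.93, with 4 lower and neither rise left. The testis beta tubulin betaTub85D, a part of meiotic spindles and of the sperm axoneme, read 2714.1, 2490.8 and 2632.6 in control and 365.1, 377.0 and 431.0 in can testes (-2.69), and the chaperonin form Hsp60B fell by 2.51. Rbp4, a spermatocyte RNA-binding protein, rose by 2.16, from 182 to 867, and blanks by 1.51. Of 12 early germline genes 3 rose, with a median of 0.14 (-0.45 under ribosomal centring, where no rise was left and 4 were lower). The spermatogonial differentiation factor bam was at least 3.74-fold higher, zpg rose by 1.26 and nanos by 1.19. The germline helicase gene vas was not called (0.53).

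Of 18 genes of the piRNA pathway, which silences transposons in the germline, 7 rose and 1 fell, with a median of 0.71 and no rise left under ribosomal centring. The Tudor domain genes qin and vret rose by 1.70 each, mael by 1.45 and aub by 1.26, whereas papi fell from 402.8, 510.9 and 461.8 to 84.5, 83.9 and 98.5 (-2.17). Among 19 tubulin and motor genes 5 fell, among them TTLL3B (-2.60) and the kinesins Klp59C (-2.39) and Klp59D (-1.58), and the mitotic kinesin genes Klp61F (1.64) and ncd (1.19) rose. The 2 rises of 19 are not above the 16.4% of all genes called higher. Under ribosomal centring 11 of the 19 were lower and none higher. Of 10 heat shock and cognate genes Hsp26 rose by 1.97, from 886 to 3520, Hsp68 by 1.92, Hsp27 by 1.69 and Hsp110 by 1.36. Under ribosomal centring none of the list was higher and 3 were lower. The cognates Hsc70-1 and Hsc70-2 fell by 3.298 and 1.52.

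Markers of other cells of the dissection were measured beside these lists. None of 14 somatic cyst and hub genes was called, with a median of 0.19 that turned to -0.61 under ribosomal centring, where 4 were lower. The cyst stem cell gene chinmo differed by 0.31 and Nrt by -0.13. Of 12 basement membrane and haemocyte genes Pxn (1.38) and vkg (1.02) rose, although vkg lost its call without control replicate 2 (1.00) or 3 (0.85) or can replicate 3 (0.96). Of 13 muscle genes Prm was at least 3.81-fold and TpnC73F at least 1.95-fold higher. These 2 of 12 and 2 of 13 genes are near the 16.4% of all genes called higher. None of 9 fat body or 7 neuronal genes was called, and of 10 immune effectors Mtk was at least 2.15-fold higher. Under ribosomal centring no basement membrane or muscle gene was higher, and 2 muscle, 3 fat body, 3 neuronal and 2 immune genes were lower. Without the array of most accessory gland signal in each group 1 neuronal gene was lower and 1 higher. Their part in the other results was not tested.

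Accessory gland transcripts varied within groups rather than between them. The mean signal of 16 listed genes was 299, 148 and 39.2 on the control arrays and 172, 7.72 and 258 on the can arrays. None of the 16 was called, and Acp95EF ranged from 558.1 to 2552.5 in control and from 28.8 to 2508.9 in can testes. Anp, of the ejaculatory duct, fell from 620.8, 235.9 and 131.5 in control to between 42.9 and 61.0 on the can arrays (-2.13, adjusted p = 0.0247), but lost its call without control replicate 1 (adjusted p = 0.0982), without can replicate 1 (0.0659) and without can replicate 3 (0.0662). The 3′ to 5′ signal ratios of control genes, a sign of RNA integrity, moved both ways. That of GAPDH was 2.59 ± 0.294 (SD, n = 3) in control and 5.52 ± 1.33 in can testes. That of eIF4a ran the other way, 5.22 ± 0.292 against 3.83 ± 0.490, and that of actin was 2.62 ± 0.0898 against 2.57 ± 0.259. The part of these ratios in the results was not tested.

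Lower genes were unevenly placed among chromosome arms and higher genes less so. On the X, 6.75% of 1763 genes were lower, against 13.5% of 1976 on 2L, 11.2% of 2176 on 2R, 10.4% of 2107 on 3L and 11.4% of 2720 on 3R. On the fourth chromosome 0 of 57 genes were lower and 8 were higher. The higher share lay between 14.04% and 17.05% on every arm. These shares are descriptions without a test, since neighbouring genes are not independent. Lower genes also spanned less of the genome, with a median of 1571 bases from start to end in the RefSeq Release 6 annotation, against 2272 for higher and 2637 for uncalled genes.

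Calls of 1 direction lay side by side in 30 runs of at least 4 consecutive measured genes, of which 18 were lower and 12 higher. The number of runs that scattered calls would give was not computed. It is larger for higher genes (16.5% of 10799 placed genes) than for lower ones (10.7%), so the 2 counts are not alike. The longest was a run of 9 lower genes on 3R that holds dpr11, CG1137, CG2336, CG1138, CG31482, glob2, sowi, CG15177 and sunz, with differences from -4.13 to -1.08. Within it glob2, a globin, went from a mean signal of 1104 to 389, and CG15177 from 1062 to 496, so its members differed widely in depth. Another lower run holds the Mst84D genes, which lie in tandem and may share probe sequence.

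The arrays labelled comr gave a second arrest for comparison, tested in the same fit. In can testes 1015 probe sets (7.27% of 13966) were higher and 455 (3.26%) lower than on these arrays. Of the 1295 probe sets lower in can testes than in control, 626 (48.3%) were higher in can testes than on the arrays labelled comr and 30 were lower. Both comparisons use the same can arrays, so these counts are not independent. Of the 2042 probe sets higher in can testes than in control, 3.62% were higher and 4.85% lower than on the arrays labelled comr. The other 1869 (91.5%) were not called between the mutants, a share close to that of all probe sets. A missing call does not show that they were equal.

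Of the genes called in can testes and named by more than a number, the 6 furthest above the arrays labelled comr had all fallen in can testes, but only part of the way. The gene bb8, a glutamate dehydrogenase needed for sperm mitochondria, had a mean signal of 1931 in control, 652 in can testes and 2.57 on the arrays labelled comr. Porin2, a testis mitochondrial channel paralog, stood at 2184, 582 and 19.3, and tomboy20, a testis form of an outer membrane import receptor, at 1515, 324 and 2.20. Ppi1 stood at 2135, 654 and 11.7, the sugar transporter sut4 at 1583, 580 and 6.33, and ATPsynCF6L at 891, 324 and 4.77. The numbered gene CG7214, which had risen in can testes, stood as far above those arrays (4.35), at 393 against 3.20. For the 6 genes can testes lay between the other groups, with log2 differences of 4.04 to 5.16 above the arrays labelled comr and adjusted p at most 1.29e-09.

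That order was not seen for Vha36-2, which was at 2.30 in can testes and 2.20 on the arrays labelled comr (log2 difference 0.01, adjusted p = 0.960), both at the array's background. Over 10 lists of sperm genes and testis paralogs, 79 of 128 genes were lower and 5 higher in can testes than in control. Of all genes, 10.7% were lower and 16.4% higher. The sperm lists were tail, chromatin, comet and cup, axoneme, individualization, mitochondrial shaping and leucyl aminopeptidases. The paralog lists were glycolytic, proteasome and respiratory. Ribosomal protein paralogs, with 2 lower and 7 higher of 10, were left out, and the lists were picked with earlier results known. Of all 1295 probe sets lower than in control, 48.3% were higher and 2.32% lower than on the arrays labelled comr. Of the 79 lower genes, 45 were higher and 6 lower than on those arrays. The individualization gene soti was among the 6, at 1950 in control, 369 in can testes and 909 on the arrays labelled comr.

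Other genes called in can testes stood below the arrays labelled comr, here again the furthest of those named by more than a number. The scavenger receptor gene Sr-CII read 62.2, 60.3 and 58.4 in control and 8.8, 3.1 and 1.0 in can testes, against a mean of 84.8 on the arrays labelled comr. Nmdmc, of folate metabolism, stood at 47.1 in control, 13.2 in can testes and 121 on the arrays labelled comr, and its call against control ended without control replicate 2 (-0.93) or 3 (-0.92). The glutathione transferase gene GstD3 stood at 113, 36.3 and 206 in the same order. Bdbt and esc had risen in can testes, to 74.9 and 78.2, but stood at 310 and 295 on the arrays labelled comr. Of 5 testis TAFs 3 were also lower in can testes than on those arrays, by a log2 difference of 1.74 for can, 1.70 for nht and 1.31 for mia. So were 3 of 8 tMAC subunits, topi by 2.96, aly by 1.55 and wuc by 1.14.

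**Figure D5:**
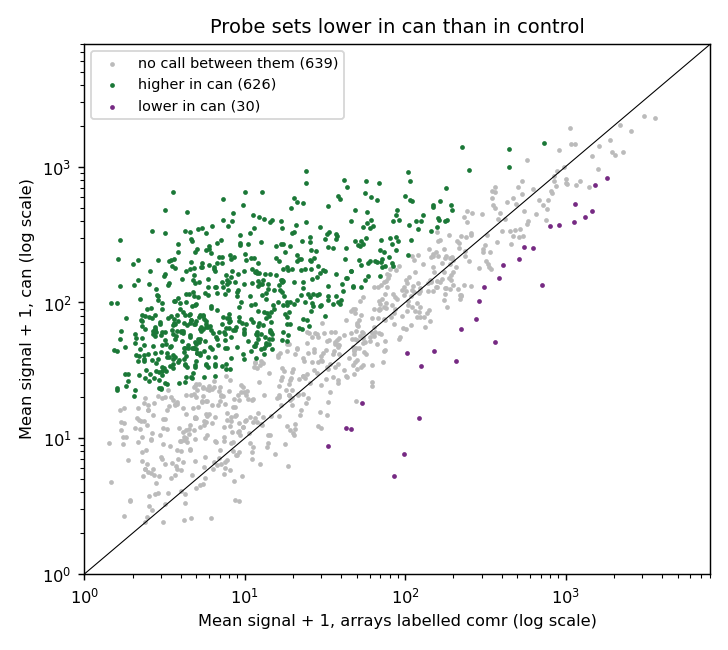
Each point is 1 of the 1295 probe sets lower in can than in control testes, with the mean signal + 1 of the arrays labelled comr on the x axis and of the can arrays on the y axis (both log scales, n = 3 arrays each) and a line of equal signal. The 626 green points (higher in can testes) lie above the line, the 30 purple points (lower) below it, and the 639 grey points were not called between the mutants.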

How the data were processed

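RNA of whole testes was measured on 9 one-colour Affymetrix arrays, 3 a group, of which 6 were compared here. The deposited intensity values are linear signals made with GCOS 1.4, per the submitters' processing notes, and scaled by the authors to a common trimmed mean. The files hold no detection calls or depth, so the number of arrays limits precision. Genes were named from the platform annotation (12443 probe sets with 1 symbol, 327 with several, 1196 with none). Chromosomes and gene order came from the RefSeq Release 6 table. Values were taken as log2(signal + 16), without filter, and fitted with limma 3.58.1 (R 4.3.3) on all 9 arrays with an intensity trend. On simulated data over 13966 probe sets, 96% of 100 changes of 1.5 and 100% of 100 changes of 3 (log2) were recovered. These changes were added to randomly drawn probe sets with normal noise and no shift in scaling. Dim probe sets were included, where a real fall cannot be so deep, so the rates do not give the recovery in these data. Named genes were the target and marker genes, the 12 largest falls and rises (4 for numbered genes), the 6 furthest from the arrays labelled comr each way, those nearest the threshold and up to 3 called members a list with non-overlapping groups, or the 2 brightest where none was called. Further members of a list are quoted as examples, chosen after their values were seen. Members and lists were chosen with earlier results of these data known. Deviations of same-numbered can and control arrays from their group means correlated at 0.05, -0.01 and -0.12. Those of differently numbered arrays correlated at -0.14 to 0.16. These values show no sign of pairing by replicate number, but with 3 arrays a group they cannot settle it. Alternatives changed the offset, filter, scaling, weights, block, threshold and arrays used. Promoter and protein sequences, the 12 Y-linked fertility genes listed and the sequence motifs planned were not analysed here.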

Additional observations from a re-analysis of the deposited data

How the results depend on the processing

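As deposited, can testes had 1295 lower and 2042 higher probe sets than control, and 455 lower and 1015 higher than the arrays labelled comr. Leaving out 1 array gave 1295 to 1319, 2016 to 2080, 454 to 485 and 1013 to 1028. Counts of lower calls against control were 3592 under ribosomal centring, 2683 with no minimum fold and 584 with a 4-fold minimum. Higher calls were 3086 with an offset of 1, 946 with an offset of 64, 252 under ribosomal centring, 4803 with no minimum fold and 225 with a 4-fold minimum. Against the arrays labelled comr, lower calls were 830 with an offset of 1, 148 with an offset of 64, 858 centred on array medians, 884 centred on spiked controls, 2494 with no minimum fold and 27 with a 4-fold minimum. Higher calls there were 1593 with an offset of 1, 502 with an offset of 64, 2443 with no minimum fold and 438 with a 4-fold minimum. With the replicate number as a block the counts were 1296, 2042, 457 and 1016, and the sample titles share only that number. The uncalled can transcript (0.18) turned to -0.0092 under quantile normalisation, -0.69 under ribosomal centring, -0.0117 centred on array medians and -0.0228 without the arrays of most accessory gland signal. Ribosomal centring also turned aly to -0.20, E2f2 to -0.12, chinmo to -0.72, vkg to -0.0082 and Lsp2 to -0.65. Leaving out 1 array, Acp95EF ranged from -2.19 to 0.72 (without can replicate 2), and SP from -1.57 to 0.30 (without control replicate 1) and 0.39 (without can replicate 2). The causes were not tested. Near the 2-fold threshold, 89 lower and 339 higher calls lay within 0.1 inside it and 106 and 339 probe sets within 0.1 outside. Probe sets near the floor of 20.3 cannot show a fall, and folds there are bounds.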

Other observations

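Probe sets of 1 gene did not always share a call. Of 1209 genes with over 1 probe set, 109 had a probe set that was lower and in 26 all were, while 169 had one that was higher and in 21 all were. Svil and loco had a probe set called each way.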
